A study of Drosophila melanogaster with 8 samples.

Results

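Genes for the subunits of mitochondrial ATP synthase were followed in Kc cells, a female *Drosophila melanogaster* line, through knockdown of Sxl alone or together with msl-2. The question was whether a large fall of 1 of them, ATPsynC, was shared by genes of the other subunits. The genes are ATPsynC, ATPsynF, ATPsynG, ATPsynB, ATPsynD, ATPsynO, ATPsyndelta, ATPsyngamma, ATPsynbeta and blw. The set was chosen by the array values of ATPsynC, which fell in Sxl RNAi against GFP RNAi, so the ATPsynC values are given as a description and carry no test in any comparison, since every comparison shares arrays with the one that singled it out. The other genes were listed as subunits of the same enzyme. Of the 10 genes, 9 were measured among 11982 in all, on 11 probe sets annotated to a single gene. The only probe set annotated to ATPsynG is also annotated to another gene and was not used.

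Total RNA had been measured on 8 Affymetrix expression arrays of Kc cells treated with double-stranded RNA against Sxl (3 arrays), against both Sxl and Msl2 (2 arrays), or against GFP as a control (3 arrays). All groups are the same cell line, with no allele or treatment named in the labels beyond the double-stranded RNA. For each knockdown array the labels point to a GFP array as its background, and these arrays form a control set. Control set 1 held Sxl RNAi replicate 2, Sxl and Msl2 RNAi replicate 1 and GFP RNAi replicate 1, control set 2 held Sxl RNAi replicate 1 and GFP RNAi replicate 2, and control set 3 held Sxl RNAi replicate 3, Sxl and Msl2 RNAi replicate 2 and GFP RNAi replicate 3. RNAi had been done in 6-well plates, and no source used here ties each array to a culture of its own, so the p-values describe only how far these samples spread, which may be technical. Values are on a log2 scale and come from RMA, which removes background, brings arrays to a common distribution and joins the probes of each set into 1 value. A change in the total RNA of a cell would not show in them.

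ATP synthase makes most of the ATP of an aerobic cell. Protons that the respiratory chain has pumped out of the mitochondrial matrix flow back through a membrane sector, turning a ring of identical c subunits. The ring drives a central stalk inside a catalytic head of alpha and beta subunits, while a peripheral stalk keeps the head from turning. ATPsynC encodes the c subunit of the ring. In females SXL prevents MSL2 from being made, and without MSL2 the male-specific lethal (MSL) complex, which raises transcription of the X, does not form. ATPsyndelta is the only measured gene of the 9 on the X.

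The targeted transcripts bear on the labels. On its brightest probe set the Sxl transcript read 6.64, 6.09 and 6.93 after Sxl RNAi, 6.65 and 7.37 in the double knockdown, against 7.20, 7.01 and 6.99 in GFP RNAi. On that probe set the library labelled Sxl and Msl2 RNAi replicate 2 stood above its GFP control. A second probe set read 6.51, 5.56 and 6.52 after Sxl RNAi, 6.24 and 6.41 in the double knockdown, against 6.73, 6.87 and 6.91 in GFP RNAi. On it every knockdown array lay below every GFP array. Changes after Sxl RNAi were -0.51, -0.64 and -0.05 on 3 probe sets of the gene, and -0.64 alone passed (limma adjusted p = 0.0373 over all probe sets). The third probe set read 3.29 to 3.52 on the 8 arrays, near the lowest value of the data, 3.07, so a fall could hardly show on it. In the arrays labelled Sxl and Msl2 RNAi, called the double knockdown here, the same 3 probe sets were at -0.05, -0.43 and -0.05 and none passed (adjusted p = 0.951, 0.310 and 0.851). The transcript of msl-2 was 6.19, 5.33 and 5.61 in Sxl RNAi and 4.16 and 4.13 in the double knockdown, against 4.32, 4.47 and 4.51 in GFP RNAi. It rose by 1.28 after Sxl RNAi (limma adjusted p = 5.49e-04) and was at -0.16 in the double knockdown (adjusted p = 0.684). A fall of either target thus did not pass in those arrays against GFP RNAi, where msl-2 was already below the median of all genes. Against the double knockdown, however, msl-2 was higher in Sxl RNAi by 1.43 (limma adjusted p = 0.00398). A gene was called expressed if its mean over all arrays exceeded the median of all genes, 5.24. By that limit 10 of 11 measured plasmatocyte markers, the blood cell class to which Kc cells are related, were expressed, as against 1 of 6 crystal cell and lamellocyte, 2 of 4 neuron, 1 of 4 muscle, 4 of 10 germ line and testis and 2 of 6 fat body markers. The mean level of the plasmatocyte list was 8.13 to 8.55 in Sxl RNAi arrays, 8.29 to 8.32 in the double knockdown and 8.38 to 8.68 in GFP RNAi arrays. The fat body list was at 6.59 to 6.76 in Sxl RNAi and 6.68 to 6.70 in the double knockdown, against 6.88 to 6.90 in GFP RNAi, and the crystal cell and lamellocyte list at 4.56 to 4.60 and 4.45 to 4.52, against 4.65 to 4.71 in GFP RNAi. Both lists were thus lower in every knockdown array, but the crystal cell and lamellocyte means were under the expression limit. The neuron list was at 5.72 to 6.03 in Sxl RNAi and 5.59 to 5.86 in the double knockdown, against 5.55 to 5.77 in GFP RNAi. The muscle list and the germ line and testis list overlapped between the groups. The part of the marker lists in the results below was not tested. All 9 ATP synthase genes were above the expression limit on every array.

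In the membrane sector, ATPsynC was low in both knockdowns. The log2 values of Sxl RNAi replicates 1, 2 and 3 were 11.42, 10.02 and 9.74, and those of Sxl and Msl2 RNAi replicates 1 and 2 were 10.93 and 10.86, against 12.15, 12.51 and 11.82 in GFP RNAi replicates 1, 2 and 3. Every knockdown array lay below every GFP array, whereas the values of the 2 knockdown groups overlapped, because Sxl RNAi replicate 1 lay above both arrays of the double knockdown. Within control pairs, Sxl RNAi differed from GFP RNAi by -2.13 in set 1, -1.09 in set 2 and -2.08 in set 3. The fall was therefore about 1 log2 unit smaller in set 2 than in sets 1 and 3. The double knockdown differed from GFP RNAi by -1.21 in set 1 and -0.96 in set 3. In both sets that hold all 3 groups, Sxl RNAi lay below the double knockdown, by -0.92 in set 1 and -1.12 in set 3.

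A limma model of the 8 arrays, in which knockdown and control set were terms, gave ATPsynC a log2 change of -1.77 ± 0.17 (SE) in Sxl RNAi against GFP RNAi, or 3.40-fold lower. The SE is moderated by limma, which draws it toward the spread of all genes, and so is small for ATPsynC. Its own residual SD was 0.345, and its 3 pair differences had an SD of 0.58. No gene of the 11982 had a lower value in Sxl RNAi against GFP RNAi, but ATPsynC was chosen by its fall there, so this rank restates the choice. In the double knockdown against GFP RNAi the change was -0.92 ± 0.20 (SE), or 1.89-fold lower, and 32 genes had lower values. Set 2 has no double knockdown array, so this value draws on the Sxl RNAi and GFP arrays of set 2, and it was -1.09 when either of them was left out. It was -0.70 without GFP RNAi replicate 1 and -1.26 without the control set in the model. In Sxl RNAi against the double knockdown the change was -0.85 ± 0.20 (SE), again with no lower gene, a rank that rests on the same Sxl RNAi arrays. This change was -0.50 without the control set in the model. A single probe set reads ATPsynC, and its identifier marks probes that match several transcripts. Which of them were measured was not tested.

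**Figure D1:**
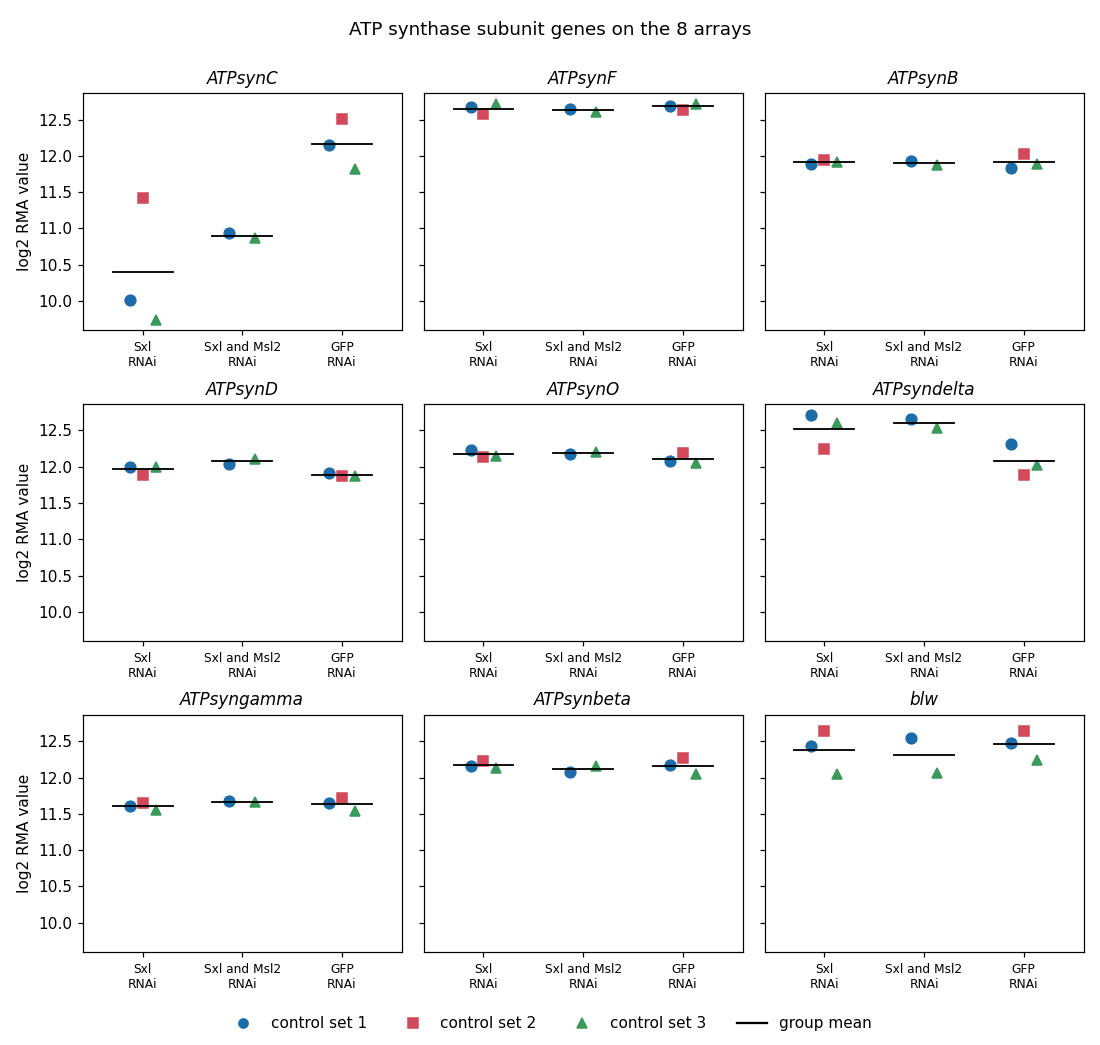
Log2 RMA values (y axis) of the 9 measured ATP synthase subunit genes on each array, by knockdown (x axis), with symbols for the control set and a bar for the group mean (n = 3, 2 and 3). ATPsynC has every knockdown array below every GFP array, ATPsyndelta is raised in both knockdowns, and blw follows the control set.

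The other measured member of the membrane sector, ATPsynF, encodes the f subunit. It was 12.57, 12.67 and 12.71 in Sxl RNAi and 12.64 and 12.61 in the double knockdown, against 12.69, 12.63 and 12.72 in GFP RNAi. The groups overlapped, and the 8 values spanned 0.145. The fitted change was -0.03 ± 0.07 (SE) after Sxl RNAi (limma adjusted p = 0.864) and -0.09 ± 0.08 (SE) in the double knockdown (limma adjusted p = 0.662).

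The 3 peripheral stalk genes gave values near those of GFP RNAi. ATPsynB, of the b subunit, was 11.94, 11.89 and 11.91 in Sxl RNAi and 11.93 and 11.87 in the double knockdown, against 11.84, 12.02 and 11.89 in GFP RNAi. ATPsynO, of the subunit that joins the stalk to the head, was 12.14, 12.23 and 12.15 in Sxl RNAi and 12.17 and 12.20 in the double knockdown, against 12.08, 12.19 and 12.06 in GFP RNAi. For both genes the knockdown and GFP arrays overlapped. ATPsynD, of the d subunit, was 11.89, 12.00 and 12.00 in Sxl RNAi and 12.03 and 12.11 in the double knockdown, against 11.91, 11.88 and 11.88 in GFP RNAi. Its double knockdown arrays lay above all GFP arrays, by 0.12 in set 1 and 0.23 in set 3, but the fitted change of 0.16 ± 0.08 (SE) did not pass (limma adjusted p = 0.359).

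Of the catalytic head and central stalk, ATPsyndelta was the gene that changed. It encodes the delta subunit at the foot of the central stalk. The log2 values of Sxl RNAi replicates 1, 2 and 3 were 12.24, 12.71 and 12.60, and those of the double knockdown 12.66 and 12.53, against 12.32, 11.88 and 12.02 in GFP RNAi. Sxl RNAi replicate 1 lay below GFP RNAi replicate 1, so these groups overlapped across sets, but within every pair the knockdown was higher, by 0.39, 0.36 and 0.58 in sets 1, 2 and 3 for Sxl RNAi and by 0.34 and 0.51 in sets 1 and 3 for the double knockdown. The fitted rise was 0.44 ± 0.07 (SE), or 1.36-fold, after Sxl RNAi (limma adjusted p = 0.00548). It was 0.41 ± 0.09 (SE), or 1.32-fold, in the double knockdown (limma adjusted p = 0.0338). The 2 knockdowns differed by 0.04 ± 0.09 (SE), with a 95% interval of -0.16 to 0.23 (limma adjusted p = 0.914).

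The rise after Sxl RNAi passed without any 1 of the 8 arrays, whereas the rise in the double knockdown lost its call without 6 of the 8. These were GFP RNAi replicates 1 and 3 (limma adjusted p = 0.122 and 0.166), both double knockdown arrays (0.206 and 0.279) and Sxl RNAi replicates 2 and 3 (0.0505 and 0.0518), with log2 values of 0.32 to 0.44. Without the control set as a block neither rise passed (log2 0.44, limma adjusted p = 0.418 after Sxl RNAi, and log2 0.52, adjusted p = 0.587 in the double knockdown).

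The remaining genes of the head and central stalk had no call. ATPsynbeta, of the catalytic beta subunit and located on chromosome 4, was 12.22, 12.16 and 12.14 in Sxl RNAi and 12.08 and 12.16 in the double knockdown, against 12.18, 12.28 and 12.05 in GFP RNAi. A dimmer ATPsynbeta probe set gave -0.01 after Sxl RNAi and 0.02 in the double knockdown. ATPsyngamma, of the rotating shaft, was 11.64, 11.61 and 11.55 in Sxl RNAi and 11.68 and 11.66 in the double knockdown, against 11.65, 11.72 and 11.54 in GFP RNAi. Its other probe set gave -0.06 and -0.02. For both genes the knockdown and GFP arrays overlapped.

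The alpha subunit gene blw varied with the control set. The values of Sxl RNAi replicates 1, 2 and 3 were 12.64, 12.43 and 12.05, and those of the double knockdown 12.55 and 12.07, against 12.48, 12.64 and 12.25 in GFP RNAi. The lowest array of each group was that of set 3, and both arrays of set 2 stood highest. The fitted difference between sets 2 and 3 was 0.52, given as a description, whereas Sxl RNAi moved blw by -0.08 ± 0.08 (SE, limma adjusted p = 0.608) and that in the double knockdown -0.04 ± 0.09 (SE, adjusted p = 0.898). ATPsynC also varied between sets, by 1.14 between sets 2 and 3, as did ATPsyndelta, by 0.44 between sets 1 and 2. In the other 6 genes the sets differed by 0.04 to 0.13.

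Counted over the 8 tested genes, 1 rose after Sxl RNAi and 0 fell by limma (at unadjusted p under 0.05 also 1 and 0), where 5.98% of all genes were called higher and 4.35% lower (10.3% in all). Their median log2 change was 0.00, beside -0.01 over all genes. In the double knockdown against GFP RNAi 1 rose and 0 fell (unadjusted 1 and 0), where 2.19% of all genes were called higher and 1.6% lower (3.79% in all), with medians of 0.04 and 0.00. In Sxl RNAi against the double knockdown 0 rose and 0 fell (unadjusted 0 and 0), where 0.743% of all genes were called higher and 0.0334% lower (0.776% in all). All 8 genes are expressed. Of 5991 expressed genes, 678 were called higher and 473 lower after Sxl RNAi. The counts were 251 and 172 in the double knockdown, and 88 and 3 between the knockdowns. At unadjusted p under 0.05, 1277 of all 11982 genes were higher and 1348 lower after Sxl RNAi. Those counts were 1103 and 933 in the double knockdown, and 706 and 571 between the knockdowns. The 3 comparisons share arrays and are not independent of each other. For the 7 genes other than ATPsyndelta, fitted changes after Sxl RNAi lay between -0.08 and 0.07 and their 95% intervals between -0.25 and 0.23. In the double knockdown the changes lay between -0.09 and 0.16, and the intervals between -0.26 and 0.34. A fall of the size of that of ATPsynC lay outside each of these intervals. Over the 8 genes, the mean log2 level was 12.14 to 12.21 in Sxl RNAi arrays and 12.15 to 12.22 in the double knockdown, against 12.05 to 12.16 in GFP RNAi arrays.

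**Figure D2:**
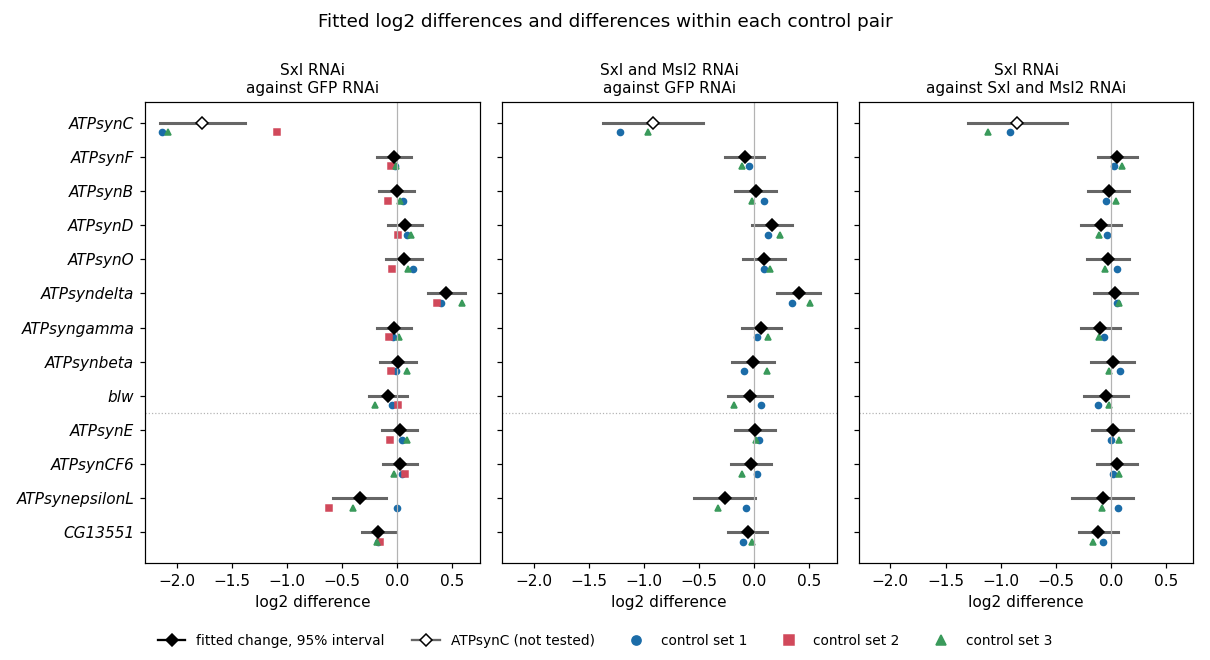
Fitted log2 differences (diamonds, with bars for the 95% interval) and differences within each control pair (smaller symbols) of 9 subunit genes and, below the dotted line, 4 further expressed genes of the enzyme, in the 3 comparisons. ATPsynC, with an open diamond, was not tested, and its intervals rest on the moderated SE. It lies at -1.77, -0.92 and -0.85, and ATPsyndelta at 0.44, 0.41 and 0.04.

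As an X-linked gene, ATPsyndelta was set beside the other expressed X genes. After Sxl RNAi 41.0% of 1047 expressed X genes were called higher, with a median log2 change of 0.23, and 78.9% of them had a lower value than ATPsyndelta. In the double knockdown 9.55% were called higher, with a median of 0.06, and 89.3% had a lower value than ATPsyndelta. In Sxl RNAi against the double knockdown 6.4% of expressed X genes were called higher, their median was 0.14, and 26.9% had a lower value than the 0.04 of ATPsyndelta. The X-linked epsilon subunit gene sun was 4.96, 4.78 and 5.12 in Sxl RNAi and 4.75 and 4.83 in the double knockdown, against 4.57, 4.71 and 4.87 in GFP RNAi. These values are under the expression limit, and its changes of 0.24 (limma adjusted p = 0.0817) and 0.07 (adjusted p = 0.756) did not pass.

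**Figure D3:**
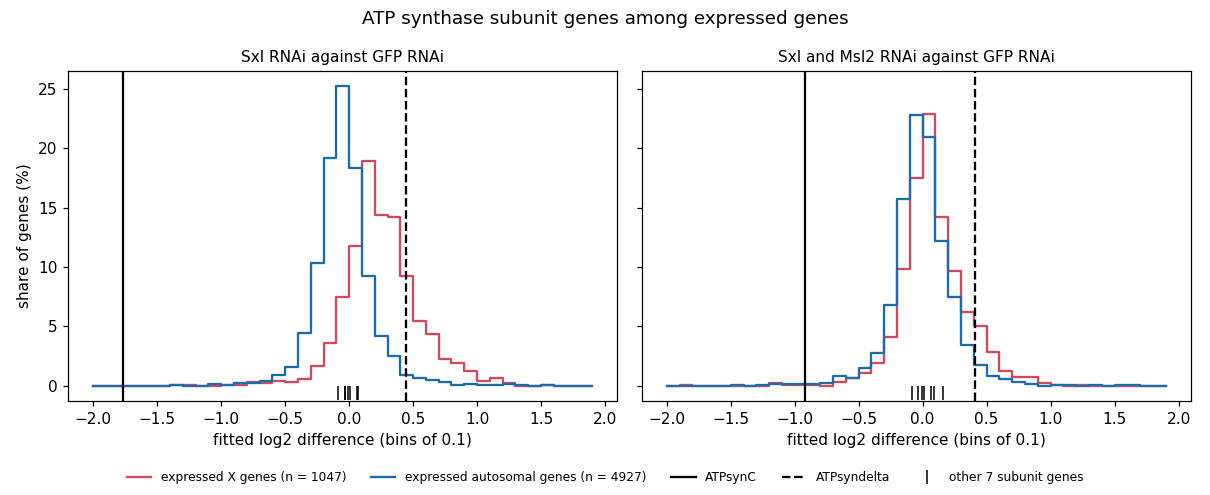
Share of expressed genes (y axis, %) by fitted log2 difference (x axis, bins of 0.1, the end bins holding all genes beyond them) for 1047 X genes and 4927 autosomal genes, in Sxl RNAi and in Sxl and Msl2 RNAi against GFP RNAi. Vertical lines mark ATPsynC and ATPsyndelta, and ticks near the x axis the other 7 subunit genes, which lie between -0.09 and 0.16. The X genes lie to the right of the autosomal genes after Sxl RNAi (medians 0.23 and -0.05) and nearer to them in the double knockdown (0.06 and -0.01).

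None of the 8 further ATP synthase genes measured was called by limma in any of the 3 comparisons (at unadjusted p under 0.05, 1 was higher and 2 lower after Sxl RNAi, 0 and 1 in the double knockdown, and 1 and 0 between the knockdowns), where 10.3%, 3.79% and 0.776% of all genes were called. The unadjusted counts stood beside 1277 higher and 1348 lower of all 11982 genes after Sxl RNAi. They stood beside 1103 and 933 in the double knockdown, and 706 and 571 between the knockdowns. After Sxl RNAi 2 of the 8 further genes were called with an intensity trend, and 1 without GFP RNAi replicate 1 or without Sxl RNAi replicate 2. Those expressed were ATPsynE, of the membrane subunit e (0.02 after Sxl RNAi, limma adjusted p = 0.921), ATPsynCF6, of a peripheral stalk subunit (0.03, adjusted p = 0.890), the paralogue ATPsynepsilonL and CG13551, a gene of the inhibitor IF1, which blocks ATP hydrolysis by the enzyme. ATPsynepsilonL was 8.44, 6.87 and 7.34 in Sxl RNAi and 6.81 and 7.42 in the double knockdown, against 6.88, 9.06 and 7.75 in GFP RNAi, so that both arrays of set 2 stood above all others. Sxl RNAi against GFP RNAi gave -0.34 ± 0.11 (SE, limma adjusted p = 0.0748). CG13551 was lower than GFP RNAi in all 3 Sxl RNAi pairs, by -0.18, -0.16 and -0.18, without passing (-0.17 ± 0.07 SE, limma adjusted p = 0.163). ATPsynE and CG13551 were at 0.01 and -0.06 in the double knockdown. The paralogues ATPsynbetaL, ATPsynCF6L and ATPsynGL, with means of 4.72, 3.86 and 4.18, were not expressed by the limit used.

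The respiratory chain, which builds the proton gradient that the enzyme uses, was read beside the same background. Of 61 measured genes 7 rose after Sxl RNAi and 1 fell, where 5.98% of all genes were called higher and 4.35% lower. All 7 were among the 10 X-linked genes of the list, whose median of 0.28 stood beside 0.23 for expressed X genes, 41.0% of which were called higher. The 7 were led by the complex I genes ND-B18 (log2 0.52, limma adjusted p = 0.00436) and ND-B14.5A (0.51, adjusted p = 0.00514), with ND-75, of the same complex, at 0.42 (adjusted p = 0.00438). The gene that fell was COX7AL, a cytochrome oxidase subunit paralogue (-0.46, limma adjusted p = 0.00380). The list's median was 0.03, and 5 genes were called without any 1 of GFP RNAi replicates 1 and 3 and Sxl RNAi replicates 2 and 3. None of the 61 passed by limma in the double knockdown, where 3.79% of all genes were called and 9.55% of expressed X genes were called higher (6 higher and 1 lower at unadjusted p under 0.05), and its brightest genes, COX4 and UQCR-14, differed from GFP RNAi by 0.09 and 0.06. In that comparison 1103 of all 11982 genes were higher and 933 lower at unadjusted p under 0.05. There COX7AL was at -0.35 (limma adjusted p = 0.0514) and ND-B18 at 0.31 (adjusted p = 0.120). Between the knockdowns ND-75 alone was higher in Sxl RNAi (0.44, limma adjusted p = 0.0421), where 0.743% of all genes and 6.4% of expressed X genes were called higher. The call was lost without any 1 of the GFP RNAi or Sxl RNAi arrays (limma adjusted p = 0.0584 to 0.249). The change was 0.42 without double knockdown replicate 1 and 0.45 without replicate 2.

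Among 8 genes of nucleotide and phosphate exchange across the mitochondrial membranes, Ant2, an X-linked ADP/ATP carrier, rose by 0.68 after Sxl RNAi (limma adjusted p = 0.00670). It exceeded its double knockdown level by 1.14 (adjusted p = 0.00800). In that comparison 0.743% of all genes and 6.4% of expressed X genes were called higher. Part of the gap of 1.14 was a lower double knockdown level, at -0.46 against GFP RNAi, which did not pass (limma adjusted p = 0.113). The call between the knockdowns was lost without double knockdown replicate 2 (0.86, limma adjusted p = 0.120) or Sxl RNAi replicate 3 (0.96, adjusted p = 0.0502). The outer membrane channel gene porin fell by 0.39 after Sxl RNAi (limma adjusted p = 0.00863). These 2 calls among 8 genes after Sxl RNAi stood beside 10.3% of all genes called. Of expressed X genes, the class of Ant2, 41.0% were called higher. None of the 8 passed in the double knockdown by limma, where 3.79% of all genes were called. At unadjusted p under 0.05, 1 of them was higher and 2 lower there, beside 1103 higher and 933 lower of all 11982 genes. The brightest, the ADP/ATP carrier sesB and the phosphate carrier Mpcp2, differed from GFP RNAi by 0.18 and -0.06. Of 31 genes of the V-ATPase, a proton pump of related design in other membranes, 3 fell after Sxl RNAi, where 4.35% of all genes were called lower. These were Vha13 (-0.28), VhaAC45 (-0.27) and VhaPPA1-1 (-0.25), with limma adjusted p-values of 0.0424 to 0.0472. All 3 are expressed autosomal genes, a class in which 456 of 4927 were called lower. With dim genes left out 5 of the V-ATPase list were called, and with an intensity trend 6. All 3 calls were lost with arrays centred on autosomal genes, with only the 2 groups compared in the model, and without any 1 of GFP RNAi replicates 1 and 3, Sxl RNAi replicates 2 and 3 or either double knockdown array. None of the 31 passed by limma in the double knockdown or between the knockdowns, where 3.79% and 0.776% of all genes were called. At unadjusted p under 0.05, 0 were higher and 5 lower in the double knockdown, beside 1103 and 933 of all 11982 genes. Between the knockdowns 1 was higher and 0 lower at that p, beside 706 and 571 of all genes. The brightest, Vha16-1 and Vha26, were at -0.14 and -0.33 in the double knockdown (limma adjusted p = 0.569 and 0.127). They were at 0.00 and 0.18 between the knockdowns. No call in the respiratory chain, exchange or V-ATPase lists was made when the control set was left out of the model.

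The profile of ATPsynC over the 8 arrays was set beside those of all 5991 expressed genes, by the root mean square difference of log2 values centred on each gene's mean. The closest gene was CG6912 (0.286), which was 10.08, 8.34 and 8.58 in Sxl RNAi and 8.92 and 8.79 in the double knockdown, against 10.53, 10.82 and 10.14 in GFP RNAi. As for ATPsynC, the set 2 array stood highest among the knockdown arrays. The next were CG4119 (0.370), Pof, of a protein that coats chromosome 4 (0.441), tyf, of a translation factor of the circadian clock (0.443), and tra, of the splicing factor that acts downstream of SXL in females (0.463). A gene with the same value on every array would lie at 0.919, the spread of ATPsynC around its own mean, and the median over expressed genes was 0.930. The other subunit genes lay at 0.818 (blw) to 1.17 (ATPsyndelta), distances that mostly carry the variation of ATPsynC itself. The arrays of a control set share their set, and closeness here is a description of 8 arrays with no test.

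**Figure D4:**
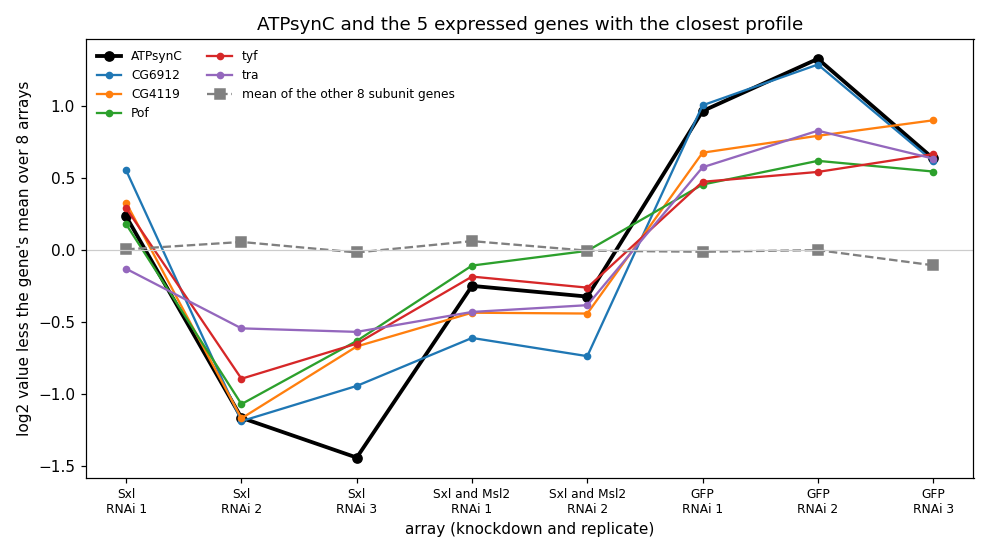
Log2 values less each gene's mean over the 8 arrays (y axis) for ATPsynC, the 5 expressed genes closest to it and the mean of the other 8 subunit genes, by array (x axis). Lines join arrays for legibility and imply no order. The 5 genes are high in GFP RNAi and low in Sxl RNAi replicates 2 and 3, as ATPsynC is, and the mean of the other subunit genes stays near 0.

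On chromosome arm 3R the nearest measured genes on one side of ATPsynC were CG15561 and, beyond it, CG1542, and on the other side CG12054 and CG15563. Their changes after Sxl RNAi were 0.16 and 0.01, and -0.25 and 0.03. Those in the double knockdown were 0.17 and 0.21, and -0.21 and -0.15. None of the 4 passed in these comparisons (limma adjusted p of 0.207 or more), and CG15563, with a mean of 4.06, was under the expression limit.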

How the data were processed

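The deposited values are log2 expression per probe set, which the authors computed with RMA from Affymetrix Drosophila arrays and which entered the tests with no further normalization. The submitters' notes name RMA without a version or options. Array medians were 4.40 to 4.46. The number of arrays, 8, limits the precision. Probe sets with 1 symbol in the platform annotation entered the tests (13647 of 18952), named through the RefSeq table of assembly Release 6 plus ISO1 MT, which matched 11893 of 11982 genes. The probe set of the highest mean stood for its gene.

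limma 3.58.1 (lmFit and eBayes, R 4.3.3) was fitted to all genes on the 8 arrays, with knockdown group and control set in the design and Benjamini-Hochberg adjustment over all genes and a threshold of 0.05. Other probe sets were read from a fit of all probe sets. The fit was tested on simulated data, and 16 alternative settings were tried. Pairing by control set comes from the labels and was checked on deviations from group means: Sxl RNAi and GFP RNAi arrays of a set correlated at 0.824 to 0.893, the double knockdown with the others of its set at 0.376 to 0.513. Across sets, Sxl RNAi and GFP RNAi arrays correlated at -0.738 to 0.256. Deviations from a group mean cancel within the group, which lowers values across sets. Those of the double knockdown arrays mirror each other, so their values do not check each set separately.

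The genes and lists were chosen with earlier results of these data known. All subunit genes are named. Of each other list, the genes past the threshold were named, up to 4 per comparison by size of change, or otherwise the 2 of highest mean, and further genes of a list were named after their values were seen. The 5 genes closest to ATPsynC, its 2 nearest measured neighbours on each side and the targeted genes were also named. No DNA or protein sequence was used here.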

Additional observations from a re-analysis of the deposited data

How the results depend on the processing

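Each change was recomputed under 16 alternatives: without the control set as a block, with the title number as the replicate block, with arrays centred on autosomal genes, without dim genes, with the mean of a gene's probe sets, with an intensity trend, with only the 2 groups compared, without control set 2, and without each of the 8 arrays. ATPsynC stayed negative throughout, at -2.10 to -1.59 in Sxl RNAi against GFP RNAi, -1.51 to -0.70 in the double knockdown against GFP RNAi and -1.02 to -0.26 in Sxl RNAi against the double knockdown. The count of tested subunit genes called higher, which is ATPsyndelta, was 0 in place of 1 without the replicate block and with the block by title number, both after Sxl RNAi and in the double knockdown. Leaving out an array gave 0 to 1 in the double knockdown. The counts called lower, and both counts between the knockdowns, were 0 under all alternatives. With the block by title number, which joins arrays of different control sets, the adjusted p of ATPsyndelta was 0.560 after Sxl RNAi and 0.498 in the double knockdown. Over all alternatives it ranged from 3.56e-05 to 0.560 and from 7.73e-04 to 0.587. Of all genes, 1237 were called after Sxl RNAi, 454 in the double knockdown and 93 between the knockdowns. Without the replicate block these counts were 30, 1 and 1, and with the block by title number 0, 1 and 1. Leaving out an array gave 514 to 1033, 20 to 615 and 6 to 88. With an intensity trend 837 were called in the double knockdown and 210 between the knockdowns, and with only the groups compared 233 between the knockdowns. The cause was not tested. Centring moved all genes by at most 0.02. Both arrays of set 2 stood above all others for ATPsynepsilonL, and for ATPsynC each was the highest of its group. The 2 or 3 arrays a group limit what could be detected.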
